A study of Mus musculus with 12 samples.

Results

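Mitochondrial ribosomal proteins are encoded in the nucleus, and their mRNAs were followed here across 12 libraries of primary mouse hepatocytes. The genes were taken by name: protein-coding mouse genes whose symbol begins with Mrpl (large subunit) or Mrps (small subunit) followed by a number, with at least 10 unstranded counts in 3 libraries. Of 55487 gene identifiers in the count files, 78 had such a name, and 77 passed. These were 48 of 49 large subunit genes and 29 of 29 small subunit genes. All 77 were among the 13535 genes tested, and the lowest count of any of them in any library was 54. The one gene left out was Mrpl53, which was listed at 0 in every library and every count column. In the GENCODE annotation, 88.0% of its exonic bases overlap another gene.

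The mitochondrial ribosome translates only the mRNAs of the mitochondrial genome, which encode core subunits of the respiratory chain and ATP synthase. Its large subunit forms peptide bonds and its small subunit reads the mRNA, and both are built on ribosomal RNA from mitochondrial DNA and on proteins that are made in the cytosol and imported. Some of these proteins have counterparts in bacterial ribosomes, and others are found only in mitochondria. The hepatocyte is rich in mitochondria and depends on oxidative phosphorylation.

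The 4 groups had 3 libraries each. Control cells received neither a scavenger nor FAC. FAC cells received FAC alone. Lip-1+FAC cells were first given liproxstatin-1, described as a scavenger of lipid reactive oxygen species, and then FAC. MT+FAC cells were first given Mito-TEMPO, described as a scavenger of mitochondrial reactive oxygen species, and then FAC. Pretreatment was on day 2 of culture. The labels do not spell out FAC and give no dose, no exposure time, no strain and no sex, and no group received a scavenger without FAC, so an effect of a scavenger alone cannot be told apart from an effect on the FAC response. Nothing in the labels says that the 3 libraries of a group came from separate animals or cultures, so p-values measure the spread between these libraries, which may be technical.

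Libraries held 22991598 to 31683376 gene-assigned counts, except FAC replicate 2 with 52529278, whose file is marked as combined. The hepatocyte label was checked against markers. Summed depth-scaled counts (CPM) of 8 hepatocyte genes (albumin and others) were 17079.8 to 17588 in control, 16521 to 17139 in FAC, 12835 to 13946 with Lip-1+FAC and 13286 to 14630 in MT+FAC libraries. Summed CPM of 6 Kupffer cell and macrophage genes was 222 to 256 in control, 287 to 320.3 in FAC, 116 to 146.2 with Lip-1+FAC and 142.6 to 174 in MT+FAC, and nearly all of it was Cd68, which other cells also express. Summed CPM of 5 cholangiocyte genes was 58.6 to 68.9 in control, 98.4 to 123 in FAC, 109.6 to 125 with Lip-1+FAC and 104 to 145 in MT+FAC. In both pretreated groups most of that sum was Spp1 (86.9 to 125 CPM, beside 34.8 to 49.0 in control and FAC). Sox9 was 15.3 to 19.7 CPM in control, 49.2 to 57.5 CPM in FAC and 10.4 to 16.6 CPM in the pretreated groups. The 6 endothelial genes summed to 33.6 to 36.0 CPM in control and FAC and 24.9 to 29.7 CPM in the pretreated groups, most of it Stab2 (25.7 to 29.3 and 15.7 to 22.2 CPM), and the 6 stellate cell and fibroblast genes to 3.40 to 7.05 CPM. Of 5 lymphocyte genes, 3 (Cd3e, Cd3g and Ms4a1) were at 0 in every library. Hepatocyte, macrophage and endothelial sums were lower in both pretreated groups than in FAC or control, although the hepatocyte gene Cps1 was at 1454 to 1890.1 CPM in control, 543 to 806 CPM in FAC and 893 to 1170.2 CPM in the pretreated groups, and the part of this in the results below was not tested. In bulk libraries, fewer cells of a type and less RNA per cell cannot be told apart.

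Promoters of the genes with the largest changes are shown first, because transcription of mitochondrial ribosomal protein genes is classically tied to the factors NRF1, GABPA and YY1. RefSeq promoter windows (build GRCm38.p6, 250 bases before to 50 after the transcription start) were found for 68 of the 77 genes. The motifs searched on both strands were GCGCNTGCG for NRF1, CCGGAAG for GABPA and other ETS factors, AAGATGG for YY1, CACGTG for the E-box and TGACNNNGC for the antioxidant response element core. The 150 bases upstream of the start are printed below, 5′ to 3′ on the gene's strand, for the 6 called genes with the largest absolute change in FAC against control or MT+FAC against FAC that hold a motif in that stretch. Capitals mark matches to these motifs.
Mrpl52, chr14:54426759-54426908, plus strand: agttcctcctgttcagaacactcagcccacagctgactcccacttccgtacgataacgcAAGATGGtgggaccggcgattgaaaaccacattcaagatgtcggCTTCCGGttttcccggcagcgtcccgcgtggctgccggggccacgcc
Mrpl43, chr19:45006443-45006592, minus strand: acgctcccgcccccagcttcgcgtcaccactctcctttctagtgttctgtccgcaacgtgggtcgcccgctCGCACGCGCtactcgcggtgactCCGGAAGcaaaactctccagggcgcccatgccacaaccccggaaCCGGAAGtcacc
Mrpl57, chr14:57826089-57826238, plus strand: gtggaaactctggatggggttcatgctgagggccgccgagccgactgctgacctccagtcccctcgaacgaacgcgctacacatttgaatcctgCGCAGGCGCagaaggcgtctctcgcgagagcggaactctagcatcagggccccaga
Mrpl22, chr11:58171514-58171663, plus strand: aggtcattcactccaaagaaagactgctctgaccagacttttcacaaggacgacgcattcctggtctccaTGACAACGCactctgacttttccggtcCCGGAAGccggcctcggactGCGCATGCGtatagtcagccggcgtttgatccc
Mrpl34, chr8:71464776-71464925, plus strand: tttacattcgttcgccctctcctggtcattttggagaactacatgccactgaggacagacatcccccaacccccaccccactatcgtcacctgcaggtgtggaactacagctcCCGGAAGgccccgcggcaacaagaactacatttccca
Mrpl45, chr11:97315566-97315715, plus strand: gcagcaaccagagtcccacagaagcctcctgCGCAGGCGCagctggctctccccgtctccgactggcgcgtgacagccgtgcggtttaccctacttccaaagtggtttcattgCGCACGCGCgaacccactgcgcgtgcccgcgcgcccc

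The NRF1 motif was found in 26.5% of the 68 promoters and in 7.12% of all 27025 genes with a window of the same length. The GABPA motif was found in 36.8% and 9.93%, and the YY1 motif in 19.1% and 7.28%. The antioxidant response element core was in 20.6% and 14.0%, and the E-box in 7.35% and 8.09%. The 27025 genes were not limited to the genes tested, while all 68 passed the count rule. Shares over expressed genes only were not counted. By subunit, the NRF1 motif was in 31.0% of 42 large subunit promoters and 19.2% of 26 small subunit promoters, and the GABPA motif in 33.3% and 42.3%. In the printed stretches, Mrpl22 holds NRF1, GABPA and antioxidant response element matches, Mrpl45 holds 2 NRF1 matches, and Mrpl43 holds 1 NRF1 match and 2 GABPA matches. A match is a description of the letters and not a measured binding site. The 9 genes without a window were not searched.

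Levels between genes were compared per exonic length, as CPM divided by exonic length and scaled to the same total in every library (TPM-like units). Most of these genes were well expressed: the median was 51.4 over the large subunit and 29.4 over the small subunit, beside 11.6 over all genes tested. The 3 highest were all of the large subunit. Mrpl12, the stalk protein that recruits translation factors, averaged 209.6, with a range of 191 to 233 over the 12 libraries. Mrpl28 averaged 196, with a range of 179 to 219.7, and Mrpl50 averaged 154, with a range of 125 to 174. The ranges of Mrpl12 and Mrpl28 overlapped, and so did those of Mrpl50 and the next gene, Mrpl14 (117 to 202). The 3 lowest were all of the small subunit: Mrps34 at 6.91 (3.42 to 12.1), Mrps25 at 7.06 (5.56 to 8.51) and Mrps35 at 7.50 (6.01 to 8.69), whose ranges also overlapped. For Mrps34 and Mrps25, 77.8% and 69.8% of exonic bases overlap another gene, and the part of this overlap in their levels was not tested.

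Control libraries carried the most mitochondrial ribosomal protein mRNA. The summed CPM of the 48 large subunit genes was 2373, 2249 and 2513 in control, 2042 (replicate 1), 2037 and 2243 in FAC, 2150.2, 2144 and 1965 with Lip-1+FAC, and 2034, 2108 and 2079 in MT+FAC libraries. The 3 control libraries lay above every other library, and the 3 FAC-exposed groups overlapped each other. The mean was 2378 ± 132 in control, 2108 ± 117 in FAC, 2086 ± 105 with Lip-1+FAC and 2074 ± 37.1 in MT+FAC (SD, n = 3 each). For the 29 small subunit genes the mean was 1041 ± 51.6 in control, 927 ± 40.3 in FAC, 928 ± 53.8 with Lip-1+FAC and 922 ± 14.3 in MT+FAC (SD, n = 3 each), and again the 3 control libraries were the highest. The ratio of large to small subunit CPM was 2.28 ± 0.0143 in control, 2.27 ± 0.0345 in FAC, 2.25 ± 0.0180 with Lip-1+FAC and 2.25 ± 0.0297 in MT+FAC (SD, n = 3 each). Control and FAC ratios overlapped (2.27 to 2.30 and 2.24 to 2.31), and the Lip-1+FAC ratios (2.23 to 2.27) lay just below the lowest control ratio. No test was run on the sums or the ratio.

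**Figure D1:**
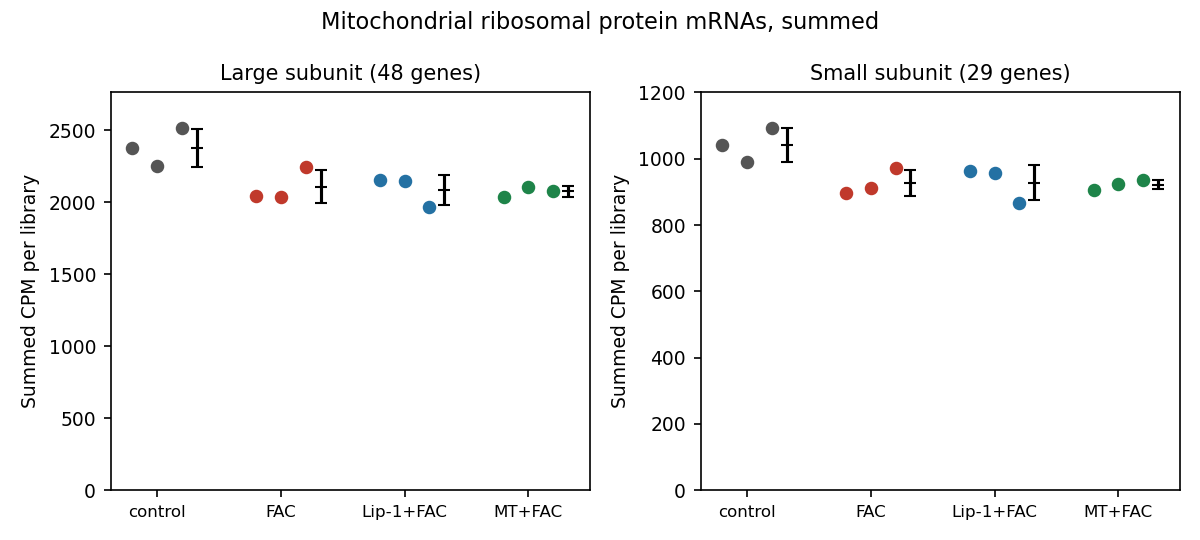
Summed CPM of the 48 large subunit genes (left) and the 29 small subunit genes (right) in each library, by group. Each point is 1 library, and the bar beside each group is the mean ± SD over its 3 libraries. The 3 control libraries are the highest in both panels, and the 3 FAC-exposed groups overlap.

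FAC against control asks what FAC does to these mRNAs. With FAC, 27 of the 77 genes fell and none rose, at an adjusted p under 0.05 by edgeR's quasi-likelihood test with Benjamini-Hochberg adjustment over all genes tested. Across all 13535 genes tested, 19.1% were called lower and 17.5% higher. The share of the mitochondrial ribosomal genes that fell was 35.1%. In the large subunit 19 of 48 genes fell, with a median log2 fold change of -0.17, and in the small subunit 8 of 29 fell, with a median of -0.18. The median over all genes tested was -0.01. The fitted log2 fold change was negative for 64 of the 77 genes and lay between -0.70 and 0.29. Among the 29 proteins found only in mitochondria 13 fell (median -0.24), and among the 48 with bacterial counterparts 14 fell (median -0.15). In none of the 27 genes called did FAC libraries overlap control. These genes were picked by a test on the same libraries, so this adds no support. The share without overlap over all genes was not counted. Of the alternatives, 2 called any gene higher: 1 gene (Mrpl48) with the 2 stranded count columns summed and 2 genes without control replicate 3.

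**Figure D2:**
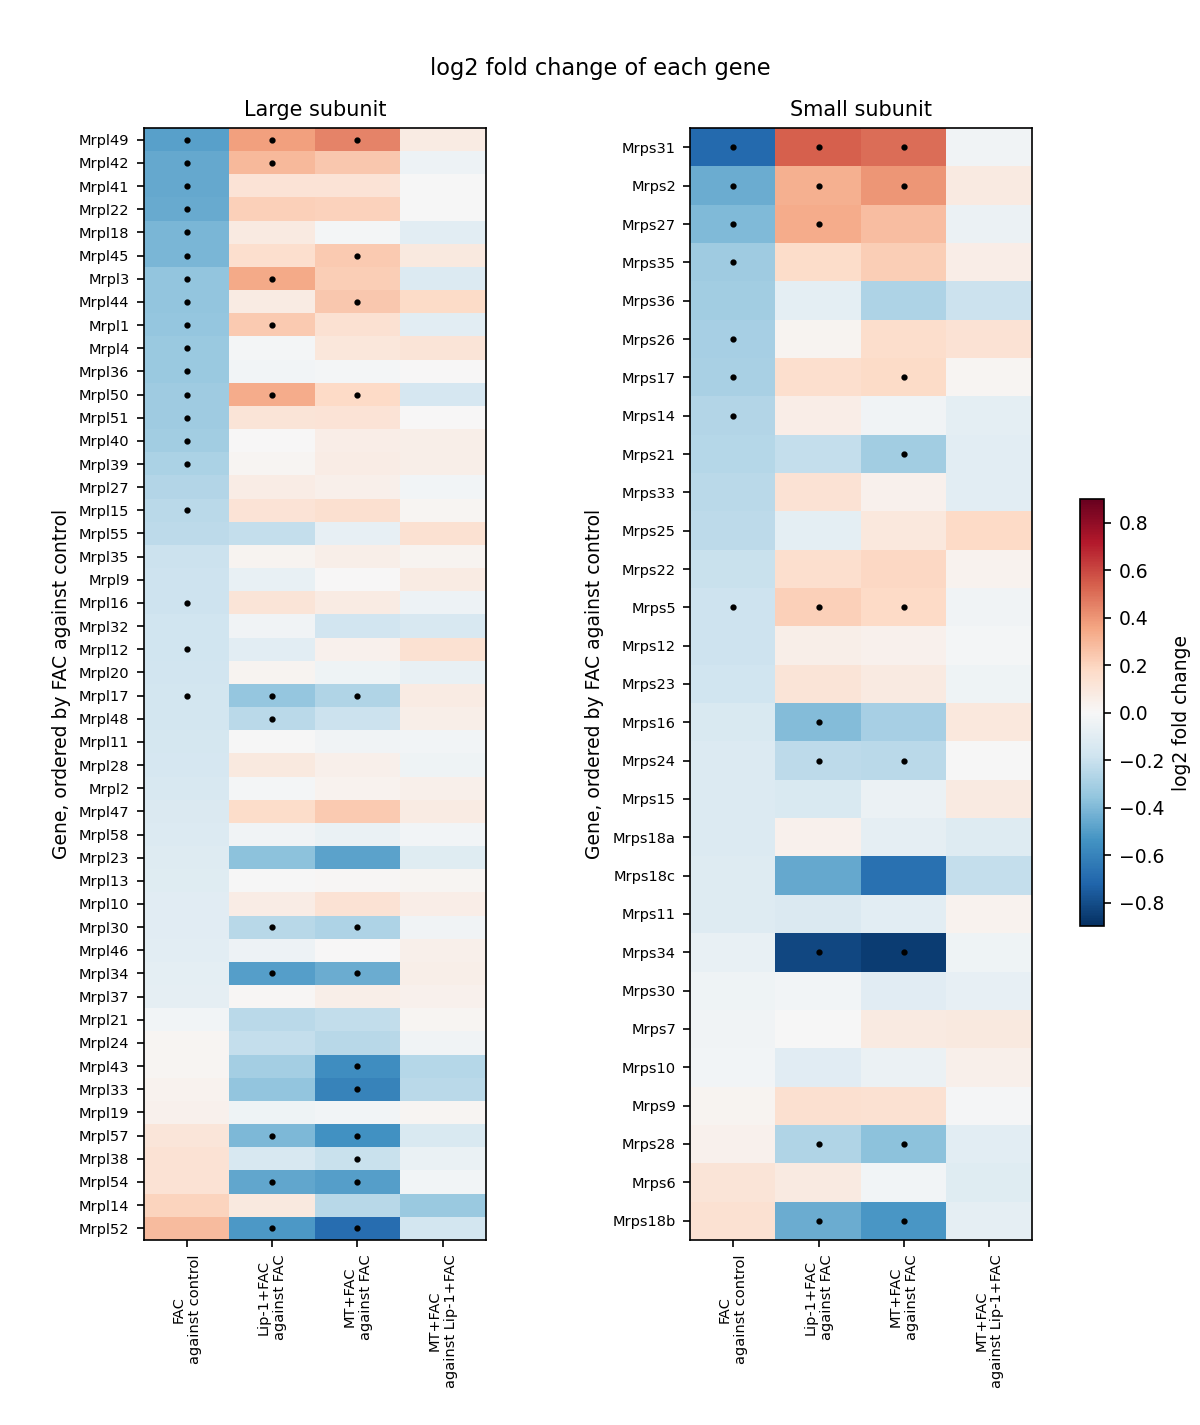
Fitted log2 fold change of each gene (rows) in 4 comparisons (columns), for the large subunit (left) and the small subunit (right), ordered by FAC against control. Red is higher in the first-named group and blue is lower, and a black dot marks an adjusted p under 0.05. The first column is blue for 64 of the 77 genes, the next columns to the right hold calls of both colours, and the last has no dot.

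The largest fall with FAC was that of Mrps31, a small subunit protein found only in mitochondria (chromosome 8, 22411361 to 22429665). Its level was 29.6, 28.4 and 27.8 CPM in control libraries and 15.0, 18.3 and 19.5 CPM in FAC libraries. It was 24.8, 25.5 and 26.3 CPM with Lip-1+FAC and 24.0, 25.4 and 25.6 CPM in MT+FAC libraries. Every FAC library was thus below every other library, and both pretreated groups lay below control without passing the test (adjusted p = 0.201 and 0.154). The log2 fold change in FAC against control was -0.70 ± 0.0939 (SE), with an edgeR adjusted p of 1.62e-05.

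Mrpl49, a large subunit protein found only in mitochondria (chromosome 19, 6053622 to 6057785), had 40.4, 37.7 and 42.8 CPM in control and 28.4, 25.0 and 33.3 CPM in FAC libraries. It had 38.5, 35.1 and 38.2 CPM with Lip-1+FAC and 39.2, 38.1 and 40.4 CPM in MT+FAC libraries. Mrpl49 fell with FAC by 0.49 on the log2 scale (SE 0.0933, edgeR adjusted p = 0.000523), and the MT+FAC libraries overlapped control. Mrps2, the counterpart of bacterial S2 (chromosome 2, 28468066 to 28471178), had 52.7, 49.9 and 48.4 CPM in control and 34.2, 39.0 and 37.2 CPM in FAC libraries. It had 45.6, 44.9 and 47.4 CPM with Lip-1+FAC and 45.0, 51.8 and 49.1 CPM in MT+FAC libraries. Mrps2 fell with FAC by 0.45 (SE 0.0746, adjusted p = 0.000134), and again no FAC library reached the level of any other group.

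The large subunit protein Mrpl45, which holds the mitochondrial ribosome to the inner membrane where new chains emerge, had 75.3, 66.8 and 72.8 CPM in control and 52.2, 49.4 and 60.3 CPM in FAC libraries. Its log2 fold change was -0.41 ± 0.0747 (edgeR adjusted p = 0.000315). Mrpl22, which lines the exit tunnel, had 45.3, 42.3 and 46.5 CPM in control and 32.8, 28.5 and 37.1 CPM in FAC libraries. Its log2 fold change was -0.45 ± 0.0864 (adjusted p = 0.000511). Neither gene's FAC libraries overlapped control.

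Of the other large falls, Mrpl42 went from 68.9 ± 6.67 to 50.1 ± 8.81 CPM and Mrpl41 from 22.6 ± 1.31 to 16.4 ± 2.27 CPM (SD, n = 3 each, log2 fold change -0.46 for both). Mrpl44, which has a fold like that of ribonuclease III, went from 29.6 ± 0.486 to 23.2 ± 1.83 CPM (log2 fold change -0.35, edgeR adjusted p = 0.0061). Mrpl3, the counterpart of bacterial L3, went from 34.5 ± 2.40 to 27.0 ± 1.53 CPM (log2 fold change -0.36). Mrps27, which has pentatricopeptide repeats, had a log2 fold change of -0.40, and 24.2% of its exonic bases overlap another gene. The call of Mrps27 was lost without control replicate 3 or FAC replicate 2 (adjusted p up to 0.0712). Among the 14 named genes called in this comparison, 10 stayed called in all 19 alternatives, and these included Mrps31, Mrpl49, Mrps2, Mrpl22, Mrpl42, Mrpl41 and Mrpl45. The weakest calls were Mrps5, lost in 15 of 19 alternatives, and Mrpl17, lost in 10.

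**Figure D3:**
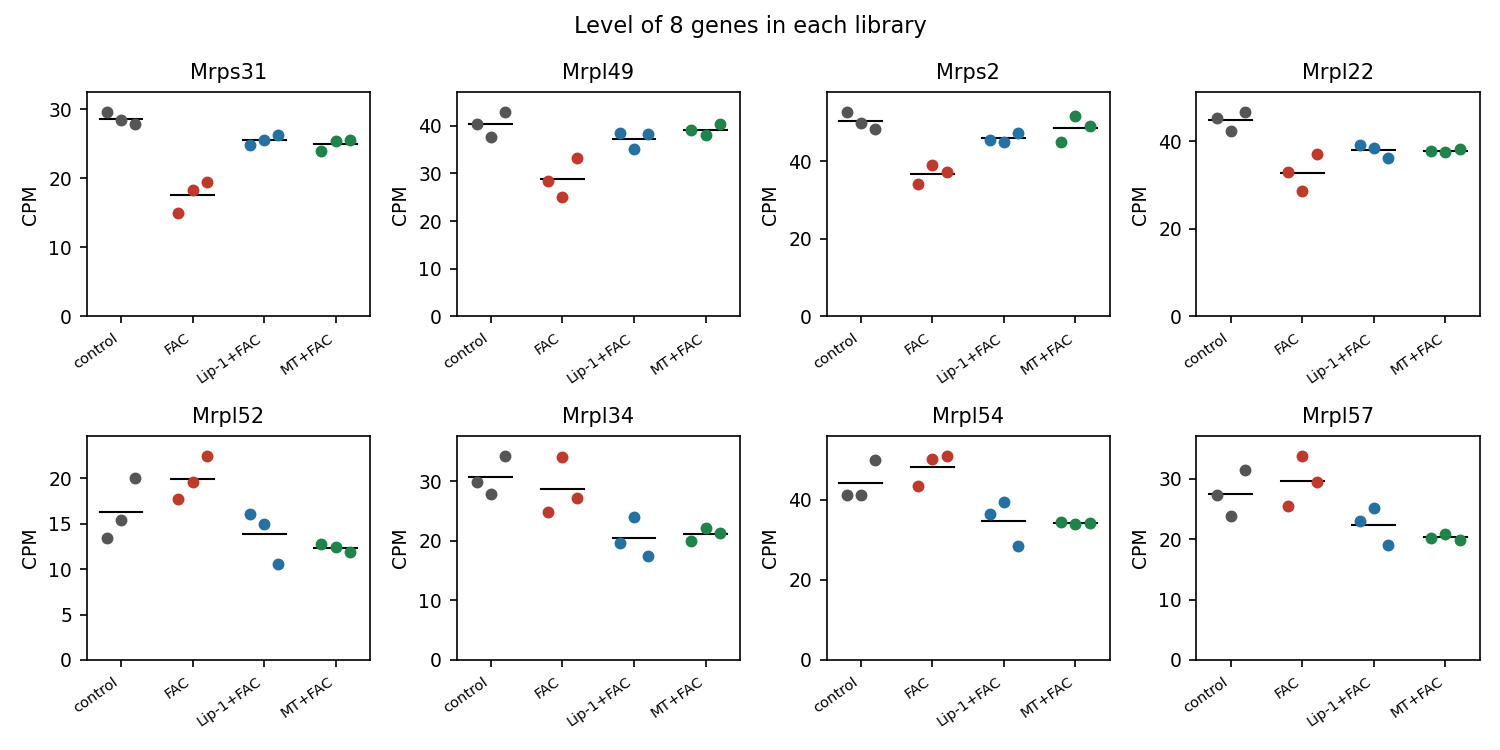
CPM of 8 genes in each library, by group. Points are libraries and the line is the mean of 3. In the upper row (Mrps31, Mrpl49, Mrps2, Mrpl22) the FAC libraries are the lowest or among the lowest. In the lower row (Mrpl52, Mrpl34, Mrpl54, Mrpl57) every pretreated library lies below every FAC library.

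Lip-1+FAC against FAC asks what liproxstatin-1 pretreatment does in cells that received FAC. The mitochondrial ribosomal genes split: 9 were higher and 12 were lower, beside 20.7% of all genes tested called higher and 19.2% called lower. As shares of the 77 genes these are 11.7% and 15.6%, both below those of all genes. The large subunit had 5 higher and 7 lower with a median log2 fold change of -0.01, and the small subunit had 4 higher and 5 lower with a median of 0.03. Both FAC-based comparisons share the FAC libraries with FAC against control, so a chance deviation of those libraries would enter all 3, and values are given side by side without counting agreement.

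The genes that rose with liproxstatin-1 were led by Mrps31 (log2 fold change 0.54 ± 0.094, edgeR adjusted p = 0.000201) and Mrpl49 (0.37 ± 0.0933, adjusted p = 0.00414). Mrpl3 rose by 0.34, Mrpl50 by 0.34, Mrps27 by 0.33 and Mrps2 by 0.32 on the log2 scale. Mrpl50, one of the most abundant mRNAs of the family, had 92.9, 91.2 and 99.6 CPM in FAC and 120.0, 123 and 115 CPM in the Lip-1+FAC libraries, which did not overlap. Its control libraries had 124, 109 and 121 CPM, a range that holds all 3 Lip-1+FAC libraries. Mrpl3 was no longer called with offsets for GC content and length (adjusted p up to 0.0585), and Mrps27 was lost without FAC replicate 1, FAC replicate 2 or Lip-1+FAC replicate 1 (adjusted p up to 0.137).

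Among genes with a mean of at least 5 CPM, those that fell with liproxstatin-1 were led by Mrpl52, a large subunit protein found only in mitochondria (chromosome 14, 54426909 to 54429756). It had 17.8, 19.6 and 22.5 CPM in FAC and 16.1, 14.9 and 10.6 CPM in the Lip-1+FAC libraries, beside 13.5, 15.5 and 20.1 CPM in control. The log2 fold change was -0.52 ± 0.155 (edgeR adjusted p = 0.0137), and Lip-1+FAC replicate 3 was the lowest library. The call of Mrpl52 was lost without that library, without FAC replicate 3 and with offsets for GC content and length (adjusted p up to 0.156).

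Mrpl34, the counterpart of bacterial L34, had 24.9, 34.1 and 27.2 CPM in FAC and 19.6, 24.1 and 17.5 CPM in the Lip-1+FAC libraries (log2 fold change -0.50, adjusted p = 0.00494). Mrpl54 had 43.3, 50.2 and 51.0 CPM in FAC and 36.4, 39.4 and 28.4 CPM in the Lip-1+FAC libraries (log2 fold change -0.47, adjusted p = 0.00227). With offsets for GC content and length, however, the log2 fold changes of Mrpl34 and Mrpl54 were 0.01 and 0.03, so their direction depends on that correction. Mrps18b (-0.45), Mrpl57 (-0.41) and Mrps16 (-0.39) also fell. With the 2 stranded columns summed, Mrps18b was at -0.21. It was no longer called on leaving out either FAC replicate 3 or Lip-1+FAC replicate 3 (adjusted p up to 0.0752), and Mrpl57 on leaving out either FAC replicate 2 or Lip-1+FAC replicate 3 (adjusted p up to 0.087). Mrps16 was lost in 8 of 19 alternatives, with libraries that overlapped. Mrpl17, the counterpart of bacterial L17, had 97.4, 96.8 and 102 CPM in FAC and 77.5, 80.0 and 75.5 CPM in the Lip-1+FAC libraries (log2 fold change -0.35, adjusted p = 0.000194), and stayed called in all 19 alternatives.

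The split moved with single libraries. Without Lip-1+FAC replicate 3, 10 genes were called (7 higher and 3 lower) in place of 21, beside 2412 higher and 2154 lower of all 13936 genes tested. Offsets for GC content and length gave 15 higher and 8 lower, beside 2445 and 2817 of all 13535 genes. Without FAC replicate 3, 14 were higher and 6 lower, beside 2606 and 2384 of all 13921. Of the 17 named genes called, Mrps31, Mrpl49, Mrps2, Mrpl50 and Mrpl17 stayed called in all 19 alternatives.

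MT+FAC against FAC asks the same of Mito-TEMPO. Here 8 genes were higher and 14 lower, beside 21.2% of all genes tested called higher and 19.7% called lower. The shares of the 77 genes are 10.4% and 18.2%. The large subunit had 4 higher and 9 lower (median log2 fold change 0.01), and the small subunit had 4 higher and 5 lower (median -0.02). Offsets for GC content and length gave 15 higher and 12 lower, beside 2569 and 2951 of all 13535 genes, with a small subunit median of 0.06.

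Mrps31 rose by 0.50 ± 0.0938 (edgeR adjusted p = 0.000375), Mrpl49 by 0.45 ± 0.093 (adjusted p = 0.000985) and Mrps2 by 0.40 ± 0.0744 (adjusted p = 0.000379) on the log2 scale. Mrpl44 (0.25) and Mrpl45 (0.23) rose as well, with MT+FAC levels of 25.9, 30.8 and 25.6 CPM for Mrpl44 and 64.8, 61.9 and 63.3 CPM for Mrpl45. Both lay above their FAC libraries, but the call of Mrpl44 was lost in 8 of 19 alternatives and that of Mrpl45 in 4, among them without FAC replicate 1 and without FAC replicate 2 for each. Mrps5 (0.18) lost its call in 15 of 19 alternatives.

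Mrpl52 had the largest fall among genes with a mean of at least 5 CPM. Its MT+FAC libraries had 12.8, 12.4 and 11.9 CPM, all below the 17.8 to 22.5 CPM of FAC, with a log2 fold change of -0.69 ± 0.156 (edgeR adjusted p = 0.00218). Mrpl57 had 20.3, 21.0 and 19.9 CPM in MT+FAC and 25.5, 33.8 and 29.6 CPM in FAC libraries (log2 fold change -0.54, adjusted p = 0.0018). Both Mrpl52 and Mrpl57 stayed called in all 19 alternatives. The other leading falls were less steady: Mrpl33 (-0.60) was lost in 10 alternatives, and Mrpl43 (-0.56), of whose exonic bases 33.4% overlap another gene, was lost without FAC replicate 3, MT+FAC replicate 1 or MT+FAC replicate 3. With the 2 stranded columns summed Mrpl43 was at -0.25, and still called. Mrpl54 (-0.50) went to -0.03 with offsets for GC content and length. Mrps18b (-0.53), with 30.5% of its exonic bases overlapping another gene, went to -0.12 when the 2 stranded count columns were summed. It was then no longer called (edgeR adjusted p = 0.205). Among the 17 named genes called, Mrps31, Mrpl49, Mrps2, Mrpl17, Mrpl52, Mrpl57 and Mrps34 stayed called in every alternative in which they were tested.

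The 2 scavengers, which differ in the reactive oxygen species they are described to remove, were compared directly in MT+FAC against Lip-1+FAC. None of the 77 genes was called in either direction, beside 0.465% of all genes tested called higher and 0.879% called lower. At an unadjusted p under 0.05 there were 3 genes, and DESeq2 called 0, while the fit with no filter on low counts called 1 lower. The 3 genes were Mrpl12 (log2 fold change 0.13 ± 0.0572, adjusted p = 0.305), Mrpl50 (-0.15 ± 0.0613, adjusted p = 0.264) and Mrpl14 (-0.33 ± 0.151, adjusted p = 0.367), chosen here after their values were seen. Over the family the fitted log2 fold change lay between -0.33 and 0.18, with medians of 0.00 in the large and -0.03 in the small subunit. These values do not show that the scavengers act alike, only that no difference passed the test.

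Against control, both pretreated groups had lower levels. In Lip-1+FAC against control 23 genes were lower and none higher, beside 14.8% of all genes tested called lower and 15.4% called higher. The large subunit had 17 of 48 lower (median log2 fold change -0.21) and the small subunit 6 of 29 (median -0.16). In MT+FAC against control 19 genes were lower and none higher, beside 10.1% of all genes tested called lower and 9.71% called higher. The large subunit had 13 lower (median -0.21) and the small subunit 6 (median -0.15). Offsets for GC content and length gave 4 genes higher and 21 lower in Lip-1+FAC against control, beside 1705 and 2019 of all 13535 genes, with a large subunit median of -0.14. Counts moved with single libraries: without control replicate 3, 14 genes were called in Lip-1+FAC against control (13 lower and 1 higher) and 10 (all lower) in MT+FAC against control, where 1541 of all 13894 genes were lower and 1756 higher in the first and 957 lower and 967 higher in the second. Without Lip-1+FAC replicate 3 there were 15 in the first comparison, beside 1542 lower and 1691 higher of all 13936 genes. Without MT+FAC replicate 1 or 2 there were 10 or 11 in the second, where 924 or 931 of all genes were lower and 896 or 1017 higher.

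Mrpl17 fell furthest below control relative to its error. It had 112, 107 and 114 CPM in control and 76.3, 85.1 and 84.4 CPM in MT+FAC libraries, and it fell by 0.52 with Lip-1+FAC (SE 0.0609, edgeR adjusted p = 6.04e-06) and by 0.44 with MT+FAC (SE 0.0608, adjusted p = 8.2e-05). With FAC alone its log2 fold change was -0.17 (adjusted p = 0.0363). Mrps21, the counterpart of bacterial S21, had 47.7, 42.5 and 46.2 CPM in control, 37.6, 32.4 and 44.4 CPM in FAC, 34.7, 36.1 and 27.0 CPM with Lip-1+FAC and 33.0, 28.1 and 30.7 CPM in MT+FAC libraries. Its log2 fold change against control was -0.48 with Lip-1+FAC and -0.57 with MT+FAC, and -0.27 (no longer called, adjusted p = 0.0804) and -0.38 using offsets for length and GC content. Mrpl34 was lower than control by 0.59 and 0.54, and by 0.31 and 0.28 with offsets for GC content and length, where it was no longer called. In Lip-1+FAC against control, Mrps16 (-0.53), Mrpl55 (-0.45) and Mrpl48 (-0.41) completed the largest falls among genes with a mean of at least 5 CPM. Mrps34, below that level, was lower still in both comparisons and is given with the genes named for their roles. Mrpl55 was at -0.24 and no longer called with offsets for length and GC content (adjusted p = 0.0574), and Mrps16 was lost on leaving out control replicate 3 or Lip-1+FAC replicate 3 (adjusted p up to 0.0842). In MT+FAC against control, Mrpl23 (-0.60) and Mrpl43 (-0.54) did so, each lost in 8 of 19 alternatives, and Mrpl43 was at -0.23 with the stranded columns summed. Mrpl48 was at -0.02 and -0.06 against control with the 2 stranded columns summed, and both Mrpl48 and Mrpl23 have a pseudogene named after them that could share reads. In all, 20 of the 77 genes match an annotated pseudogene at 95% identity or more. Among these are Mrpl22, Mrpl41, Mrpl42, Mrps5, Mrps16, Mrps18b, Mrps18c, Mrps21 and Mrps36, and reads shared with a copy could enter the values of any of the 20. Of the named genes called, 1 of 14 (Mrpl17) stayed called in all 19 alternatives in Lip-1+FAC against control, and 2 of 11 (Mrpl17 and Mrps36) in MT+FAC against control.

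Several genes were named for what their proteins do, whatever their values. Mrpl12, the stalk protein, fell with FAC from 120.3 ± 5.94 to 106 ± 1.78 CPM (log2 fold change -0.18, edgeR adjusted p = 0.0191), a call lost without control replicate 3, without FAC replicate 1, with no filter on low counts and when the fit held no other group (adjusted p up to 0.098). With offsets for length and GC content Mrpl12 was called higher than FAC by 0.15 with liproxstatin-1 and by 0.22 with Mito-TEMPO. Mrpl11, at the base of the stalk, was 26.9 ± 1.02 CPM in control and 24.1 ± 1.66, 24.0 ± 2.52 and 23.6 ± 0.231 CPM in FAC, Lip-1+FAC and MT+FAC, and passed no test. Mrpl58, a former release factor built into the large subunit, was 26.1 ± 2.17, 24.0 ± 0.674, 23.4 ± 2.44 and 23.0 ± 1.37 CPM in the same order and passed no test. Mrps12, at the decoding centre, was 23.7 ± 4.26, 20.9 ± 1.51, 21.6 ± 3.55 and 21.5 ± 1.89 CPM and was not called, but with offsets for length and GC content it was called lower with FAC (-0.29, adjusted p = 0.0414) and higher than FAC with liproxstatin-1 (0.40, adjusted p = 0.00659) and Mito-TEMPO (0.34, adjusted p = 0.0177). Errors are SD with n = 3 each.

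The 3 Mrps18 paralogues, which descend from bacterial S18, did not have the same values. Mrps18a, which in structures sits in the large subunit, was 88.9 ± 4.32 CPM in control, 81.8 ± 4.38 in FAC, 83.9 ± 6.98 with Lip-1+FAC and 77.3 ± 3.91 in MT+FAC, with no call, though 3 of 19 alternatives called it lower in MT+FAC against control. Mrps18b was 35.7 ± 4.78, 39.4 ± 5.95, 28.8 ± 4.95 and 27.3 ± 2.21 CPM in the same order, and was lower than FAC in both pretreated groups. With the 2 stranded columns summed, its call against FAC was lost with Mito-TEMPO (-0.12) and kept with liproxstatin-1 (-0.21). Mrps18c was 14.9 ± 5.21 CPM in control, 14.0 ± 4.76 CPM in FAC and 8.68 ± 0.323 CPM in MT+FAC. It was not called, and its control libraries ran from 10.4 to 20.6 CPM. A difference between paralogues was not tested.

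Some names do not follow the structure. Mrps30 also sits in the large subunit, and it was 45.2 ± 1.27, 44.1 ± 3.77, 43.2 ± 2.46 and 41.1 ± 1.24 CPM in control, FAC, Lip-1+FAC and MT+FAC, with no call. Using offsets for length and GC content, Mrps30 was called lower than FAC with liproxstatin-1 (-0.20, adjusted p = 0.0446) and Mito-TEMPO (-0.20, adjusted p = 0.0462), and lower than control with Lip-1+FAC (-0.23, adjusted p = 0.0339). Mrps36 is now known as a subunit of the oxoglutarate dehydrogenase complex, not of the ribosome. It had 13.6, 10.6 and 11.9 CPM in control and 8.38, 8.37 and 7.08 CPM in MT+FAC libraries, a log2 fold change of -0.59 ± 0.131 (edgeR adjusted p = 0.00403) that stayed called in all 19 alternatives, although a named pseudogene exists. With Mrps30 and Mrps18a counted in the large subunit and Mrps36 left out, FAC lowered 19 of 50 large and 8 of 26 small subunit genes, with medians of -0.17 and -0.18, beside 19.1% of all genes tested called lower. Mrps34, below 5 CPM on average, had the lowest log2 fold change of the family in 4 comparisons, each pretreated group against FAC and against control. It was 6.45 ± 2.15, 6.13 ± 0.864, 3.48 ± 1.11 and 3.41 ± 0.254 CPM in control, FAC, Lip-1+FAC and MT+FAC. It was lower by 0.82 and 0.86 than FAC with liproxstatin-1 and Mito-TEMPO, and by 0.31 and 0.22 with the stranded columns summed. The first of these calls was lost on leaving out either FAC replicate 2 or Lip-1+FAC replicate 3, and with the replicate block and offsets together (adjusted p up to 0.0611). Against control its log2 fold change was -0.88 with Lip-1+FAC (edgeR adjusted p = 0.00986) and -0.92 with MT+FAC (adjusted p = 0.0115), and -0.38 and -0.29 with the stranded columns summed. Both calls against control were lost without control replicate 3, and the latter also without MT+FAC replicate 2 (adjusted p up to 0.0801).

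The rest of the mitochondrial translation machinery was described from lists of named genes, whose counts stand beside the shares over all genes tested: 17.5% higher and 19.1% lower with FAC, 20.7% and 19.2% with liproxstatin-1 against FAC, and 21.2% and 19.7% with Mito-TEMPO against FAC. Of 17 mitochondrial translation factors and related genes tested, 6 fell with FAC and none rose (median log2 fold change -0.23), among them the initiation factor Mtif2 (-0.58 ± 0.0873, edgeR adjusted p = 5.38e-05) and the release factor Mtrf1 (-0.57, adjusted p = 0.00712). Against FAC, 6 were higher and 2 lower with liproxstatin-1, and 5 were higher and none lower with Mito-TEMPO. The 2 lower were Letm1 (-0.15), an inner membrane protein, and Mtln (-0.85), which encodes a small mitochondrial peptide, and neither is a translation factor. The call of Letm1 was lost in 7 of 19 alternatives, offsets for GC content and length among them (adjusted p up to 0.118), and Mtln stayed called in all 19. Mtif2 was higher by 0.55 and 0.57. Of 20 mitochondrial aminoacyl-tRNA synthetase genes and partners, which charge the tRNAs, 6 fell with FAC (median -0.11), led by Rars2 (-0.87 ± 0.11, adjusted p = 8.56e-06) and Pars2 (-0.64, adjusted p = 0.00692). With liproxstatin-1 8 were higher than FAC and 2 lower, and with Mito-TEMPO 7 were higher and 2 lower, which is 40% and 10%, and 35% and 10%, of the list. Rars2 was higher by 0.81 and 0.82, while Lars2, the leucine enzyme, was lower by 0.37 and 0.49 on the log2 scale.

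Of 28 assembly factors, 10 fell with FAC and 2 rose (35.7% and 7.14%, beside 19.1% and 17.5% of all genes, median -0.15). Tfb1m, which methylates the small subunit ribosomal RNA, had a log2 fold change of -0.88 ± 0.258 (edgeR adjusted p = 0.0118, and 0.0505 without FAC replicate 1), and Ybey had -0.78 (adjusted p = 0.00244). Against FAC, 8 were higher and 3 lower with liproxstatin-1, and 11 were higher and 1 lower with Mito-TEMPO, beside 20.7% and 19.2%, and 21.2% and 19.7%, of all genes. Nsun4, another ribosomal RNA methyltransferase, was higher by 0.58 (adjusted p = 4.2e-06) and 0.53 (adjusted p = 1.21e-05). The 5 ribosomal subunits with other symbols had no call with FAC, and Aurkaip1 and Chchd1 were lower than FAC in both pretreated groups (-0.34 and -0.37 with liproxstatin-1, -0.31 and -0.38 with Mito-TEMPO), and neither gene was called with offsets for length and GC content.

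Mitochondrial proteases and chaperones (11 genes) had 2 rises and 2 falls with FAC, 18.2% each, near the 17.5% and 19.1% of all genes. Lonp1, the Lon protease, rose by 0.40 ± 0.0584 with FAC (edgeR adjusted p = 3.6e-05) and was lower than FAC by 0.57 in each pretreated group. Of 10 regulators of mitochondrial biogenesis, 4 rose and 1 fell with FAC (40% and 10%), beside 17.5% and 19.1% of all genes. Myc rose by 1.16 ± 0.0795 (adjusted p = 1.2e-08) and the coactivator Pprc1 by 0.65, and the coactivator Ppargc1a fell by 0.55 (adjusted p = 0.00326). Against FAC, 3 regulators were higher and 1 lower with liproxstatin-1, beside 20.7% and 19.2% of all genes. With Mito-TEMPO 1 was higher and 2 lower, beside 21.2% and 19.7%. Ppargc1a was higher than FAC by 0.59 with liproxstatin-1 and by 0.37 with Mito-TEMPO, the latter lost in 6 of 19 alternatives.

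The cytosolic ribosome gave other values in FAC against control and in the comparisons against FAC. Of 76 cytosolic ribosomal protein genes, 1 was higher with FAC and none lower (median log2 fold change 0.04), beside 17.5% and 19.1% of all genes. Against FAC, 44 were lower with liproxstatin-1 (median -0.38) and 69 with Mito-TEMPO (median -0.53), and none was higher, beside 19.2% and 19.7% of all genes called lower and 20.7% and 21.2% called higher. The counts were 36 and 58 lower and 1 higher in each when offsets for length and GC content were used, where 2817 and 2951 of all 13535 genes were called lower and 2445 and 2569 higher. The cytosolic family was also lower than control in the pretreated groups. With Lip-1+FAC 33 were lower (median -0.33), beside 14.8% of all genes lower and 15.4% higher. With MT+FAC 59 were lower (median -0.46), beside 10.1% and 9.71%, and none was higher in either. A difference between the 2 families was not tested. The ribosomal RNAs of the mitochondrial ribosome, which these poly(A)-primed libraries capture only in part, were not called with FAC: mt-Rnr1 had a log2 fold change of 0.16 (adjusted p = 0.66) and mt-Rnr2 of 0.12 (adjusted p = 0.644). With liproxstatin-1, mt-Rnr2 was lower than FAC by 0.50 ± 0.173 (adjusted p = 0.042).

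**Figure D4:**
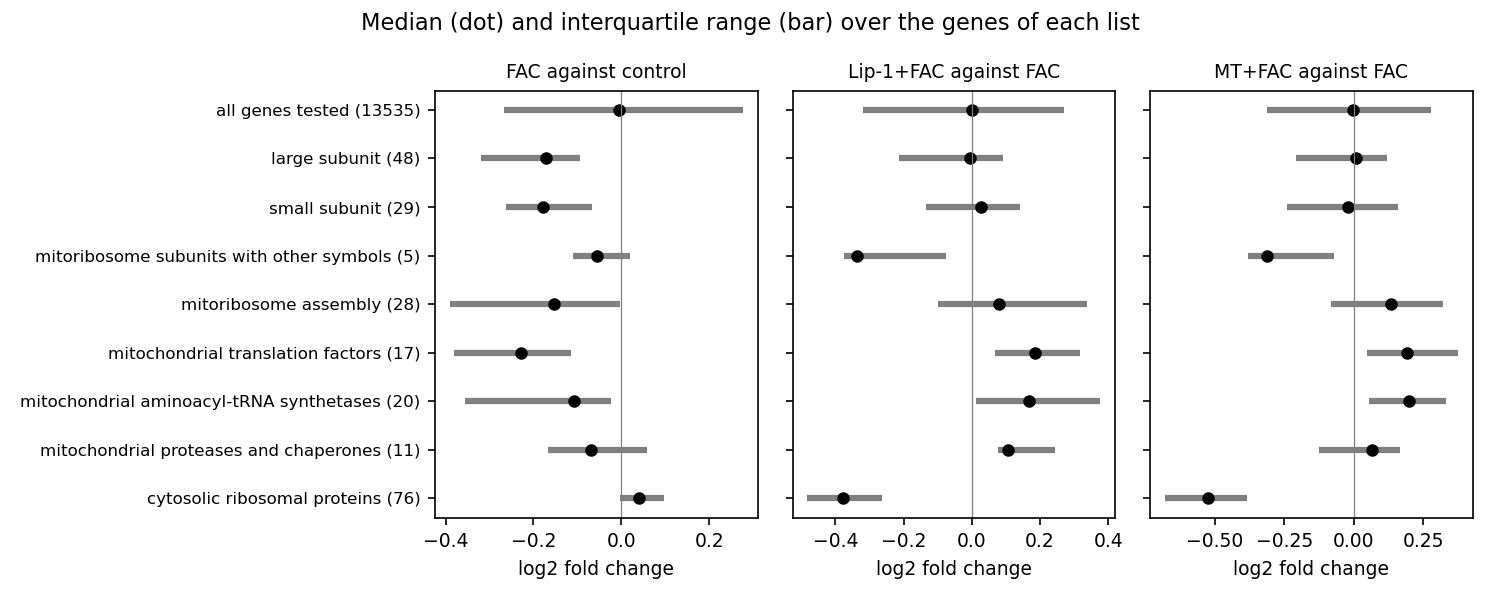
Median (dot) and interquartile range (bar) of the fitted log2 fold changes over the genes of each list, for 3 comparisons, with the number of genes in brackets. Both subunits of the mitochondrial ribosome lie left of 0 in FAC against control (-0.17 and -0.18) and near 0 in the other panels, where the cytosolic ribosomal proteins lie at -0.38 and -0.53.

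Length and base composition moved with some of these values. The mitochondrial ribosomal genes had a median exonic length of 2533 bases, beside 4098 over all genes tested, and a median GC content of 49.7%, beside 49.4%. In Lip-1+FAC against FAC, the genes called higher had a median length of 3291 bases and a GC content of 45.6%, and those called lower 2076.5 bases and 52.6%. In MT+FAC against FAC the medians were 2757.5 bases and 48.1% for those higher, and 1792 bases and 52.7% for those lower. Across the 77 genes, Spearman's rho between GC content and log2 fold change was -0.32 and -0.27 in these 2 comparisons and 0.26 in FAC against control, a description across genes, which are not independent replicates and share the libraries. With FAC, the genes called lower had a median length of 2919 bases, beside 2080.5 for those not called. Counts with offsets for both properties are given beside the results whose split between higher and lower they move, and the part of length and composition in the other values was not tested.

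**Figure D5:**
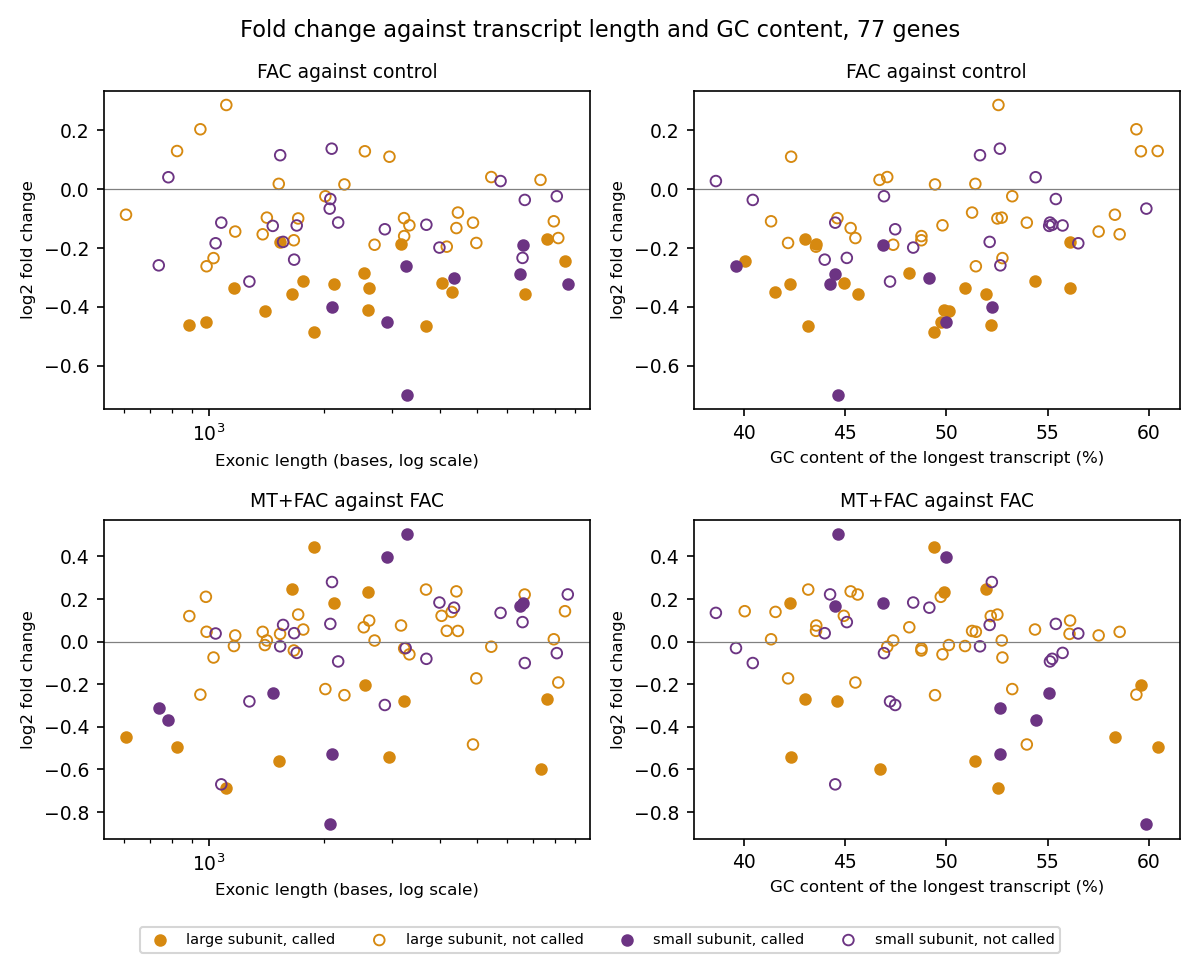
Fitted log2 fold change of each of the 77 genes against exonic length (left, log axis) and GC content of the longest transcript (right), for FAC against control (top) and MT+FAC against FAC (bottom). Colours are the subunits, and filled points have an adjusted p under 0.05. In the lower panels several of the called falls are short and GC-rich, such as Mrpl34 and Mrpl54, and in the upper panels the called falls spread over all lengths.

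Calls were also counted by promoter motif over the 68 genes with a window, as a description with no test. Over all genes tested, 19.1% were called lower and 17.5% higher with FAC, 19.2% and 20.7% with liproxstatin-1 against FAC, and 19.7% and 21.2% with Mito-TEMPO against FAC. In FAC against control, 7 of 18 genes with the NRF1 motif fell and 17 of 50 without it, and 7 of 25 with the GABPA motif and 17 of 43 without it. Among the 14 genes with the antioxidant response element core 7 fell, and 17 of 54 without it. For the YY1 motif 4 of 13 fell and 20 of 55 without it, and for the E-box 1 of 5 and 23 of 63. In MT+FAC against FAC, none of the 25 genes with the GABPA motif rose and 8 fell, and of the 43 without it 8 rose and 2 fell. In Lip-1+FAC against FAC these counts were 2 higher and 7 lower with the motif, and 7 higher and 2 lower without it. With the NRF1 motif, 2 of 18 rose and 6 fell with Mito-TEMPO, beside 6 and 4 of 50 without it. With liproxstatin-1 none of the 18 rose and 4 fell, beside 9 and 5 of the 50. Of 13 with the YY1 motif, 1 rose and 2 fell with Mito-TEMPO, and 3 and 2 with liproxstatin-1. Of 14 with the antioxidant response element core these counts were 3 and 3, and 3 and 2. None of the 5 with the E-box was called. The GABPA and NRF1 counts against FAC were picked out after the counts of all 5 motifs were seen. With offsets for length and GC content, 3 named genes that hold the GABPA motif were called higher with Mito-TEMPO: Mrpl22 (0.45), Mrps12 (0.34) and Mrps27 (0.31). Mrpl34, which also holds it, was at 0.03, so the count of none higher depends on that correction. The motif is itself rich in G and C, and the part of base composition in these counts was not tested.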

How the data were processed

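RNA was measured in 12 libraries of primary mouse hepatocytes, 3 in each of 4 groups, from poly(A)-primed full-length cDNA. The authors deposited 1 table of gene counts per library, with unstranded and stranded columns, aligned with STAR to GRCm38 per the submitters' processing notes. The STAR version and the annotation are not given in the sources used here. The unstranded counts were used. Identifiers were named from GENCODE M21 on GRCm38, and 260 did not match (0.00207% of counts).

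From the deposited counts, edgeR 4.0.16 (R 4.3.3, filterByExpr, TMM scaling, robust quasi-likelihood F-test) was fitted with 4 group means over all 12 libraries, and 6 comparisons were adjusted by Benjamini-Hochberg over 13535 genes. Calls are at an adjusted p under 0.05, and the standard error is the log2 fold change divided by the root of F. CPM is scaled by TMM library sizes. DESeq2 1.42.0, other scalings, filters, left-out libraries, a replicate block, stranded counts and offsets for GC content and length were alternatives. The fit was tested on simulated data.

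The members and lists were chosen with earlier results of these data known. Genes are named where, with a mean of at least 5 CPM, they were among the 6 largest called rises or falls of a comparison, where their role was listed, where they had the 3 highest or lowest levels per length, or, in other lists, where they were among the largest called changes. Counts at 10 or more in 3 libraries defined the genes kept.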

Additional observations from a re-analysis of the deposited data

How the results depend on the processing

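Most counts of genes called stayed within 1.5 times the value reported, in 111 of 120 alternatives. Of the medians, 125 of 126 for the large subunit and 124 of 126 for the small subunit moved by less than the SD of the medians of single libraries (0.0674 and 0.0703), which does not fix the direction of medians near 0. The exceptions follow. The small subunit median in MT+FAC against FAC was 0.0557 with offsets for GC content and length, and 0.0577 with the replicate block and those offsets. The large subunit median in Lip-1+FAC against control was -0.138 with the offsets. With no filter on low counts 1 gene was called in MT+FAC against Lip-1+FAC. In MT+FAC against control, 12 were called with the block and offsets, and 12 without genes that overlap another gene or have a named pseudogene. Leaving out 1 library at a time gave 20 to 31 genes in FAC against control, 10 to 20 in Lip-1+FAC against FAC, 15 to 23 in MT+FAC against FAC, 0 in MT+FAC against Lip-1+FAC, 14 to 24 in Lip-1+FAC against control and 10 to 27 in MT+FAC against control. With the offsets, and with the block and offsets, the log2 fold change of Mrpl34 in Lip-1+FAC against FAC was 0.00568 and 0.0213, and in MT+FAC against FAC 0.0296 and 0.0508. That of Mrpl54 in Lip-1+FAC against FAC was 0.0345 and 0.0404, and that of Mrps21 in MT+FAC against FAC 0.0272 and 0.0275. Clpp gave 0.113 and 0.115 in Lip-1+FAC against FAC, 0.0412 and 0.0437 in MT+FAC against FAC, and 0.00345 and 0.00355 in Lip-1+FAC against control. The cause was not tested. The labels name no pairing of the samples. Correlations of same-numbered libraries, taken as deviations from their group means, ran from -0.249 to 0.164. Libraries with different numbers were not correlated, so these values cannot show whether the replicate numbers pair the samples. With the replicate block alone, 26, 19, 21, 0, 23 and 18 genes were called in FAC against control, Lip-1+FAC against FAC, MT+FAC against FAC, MT+FAC against Lip-1+FAC, Lip-1+FAC against control and MT+FAC against control. The lowest count of these genes was 54. Thinned to the smallest library total, some named mitochondrial ribosomal genes were no longer called. These were Mrps5 with FAC or Mito-TEMPO, Mrpl42, Mrpl48 and Mrps16 with liproxstatin-1, and Mrpl33 and Mrpl44 with Mito-TEMPO. Named genes of the other lists are not covered in this count.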
